A study of Homo sapiens with 21 samples.

Results

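Receptor tyrosine kinases outside the HER family can drive the same growth signals as HER2, and 10 of them were followed here as possible bypass receptors: MET, MST1R, AXL, IGF1R, FGFR1, FGFR2, FGFR3, FGFR4, NTRK3 and EPHA3. They were taken by symbol from the deposited count table, in which each had 1 row, so the set is 10 of 37355 genes. The filter on low counts kept 17650 genes and 9 of the 10 receptors. AXL did not pass. The libraries are total RNA from BT474, an established HER2-amplified human breast cancer cell line, in 7 groups of 3. Untreated BT474 cells were set beside cells given trastuzumab at 10 µg/mL for 3 days and cells given 10 µg/mL of trastuzumab with 10 µg/mL of pertuzumab for 3 days. The other 4 groups are resistant pools of the same line: BT-TR1 and BT-TR2, resistant to trastuzumab, and BT-TPR1 and BT-TPR2, resistant to the antibody pair. The pools were held without antibody for 7 days before harvest. All cells grew in the same serum-supplemented RPMI medium. Each kind of resistance is thus represented by 2 pools, and the 3 libraries of a pool are libraries of that pool alone. No label says that libraries came from separate cultures, so p-values measure the spread between libraries, which may be technical.

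A receptor tyrosine kinase binds its ligand outside the cell, pairs with another receptor and phosphorylates itself and its adaptors, which feed the RAS-ERK and PI3K-AKT routes that HER2 also uses. Trastuzumab and pertuzumab bind different sites on the outer part of HER2. In HER2-positive breast cancer, MET, IGF1R, AXL and the FGF receptors are studied as ways for cells to keep these routes active when HER2 is blocked. HGF is the ligand of MET, MST1 of MST1R (also called RON), GAS6 of AXL, IGF1 and IGF2 of IGF1R, the FGFs of FGFR1 to FGFR4, neurotrophin-3 of NTRK3, and ephrin-A proteins of EPHA3.

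Library totals ran from 7939270 to 21746391 gene counts. Replicate 1 leaned most to GC-rich genes in every group: its deviation from the group mean rose with the GC content of the gene (r across genes 0.313 to 0.627, against -0.537 to 0.0828 in replicates 2 and 3; genes are not independent replicates). The trend was not confined to replicate 1. Under the antibody pair replicates 2 and 3 were at 0.0828 and -0.515, and in BT-TR1 at -0.0131 and -0.490. Leaving out replicate 1 thus does not remove the GC trend in every group. FGFR4, FGFR3 and MST1R have GC-rich transcripts (63.6%, 62.03% and 60.05% GC), whereas MET is at 42.4%. Replicate 1 had the highest CPM of FGFR4 in 7 of 7 groups and the lowest of MET in 7 of 7 groups. All 9 luminal breast epithelial markers were tested, with a summed level of 8106 to 15966 CPM per library. None of 6 leukocyte markers passed the filter (summed level 0.0641 to 0.681 CPM). Of 7 basal or myoepithelial markers, 2 passed (summed level 3.28 to 10.1 CPM, mostly TP63), while KRT5 and KRT14 were at or near 0. Of 8 fibroblast markers only COL1A1 passed (summed level 16.4 to 46.6 CPM) and DCN was at 0 in all but 1 group, where 1 read was counted. Of 5 endothelial markers VWF and CDH5 passed (summed level 5.45 to 18.4 CPM). The part of these transcripts in the results was not tested.

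The 150 bases before the transcription start of 5 receptors are shown to set the receptors with GC-rich transcripts (FGFR4, FGFR3, MST1R) beside MET and IGF1R. Sequences and starts are from RefSeq (GRCh38.p14), and each runs 5′ to 3′ on the strand of the gene. The RefSeq start of MET lies 194 bases before the GENCODE 29 start of the gene given below, and the RefSeq bases after it were not found in the GENCODE transcripts of the gene, so its window is that of the RefSeq start alone. Capitals mark GGGCGG, the GC box, or its reverse complement CCGCCC, counted on both strands with overlaps.
MET, chr7:116672046-116672195, + strand: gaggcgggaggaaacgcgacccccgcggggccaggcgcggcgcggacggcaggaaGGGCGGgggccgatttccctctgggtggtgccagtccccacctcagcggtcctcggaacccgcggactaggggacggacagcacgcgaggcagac
IGF1R, chr15:98648389-98648538, + strand: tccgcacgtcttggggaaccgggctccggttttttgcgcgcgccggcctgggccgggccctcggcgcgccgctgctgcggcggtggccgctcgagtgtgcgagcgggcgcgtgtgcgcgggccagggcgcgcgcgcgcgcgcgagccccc
FGFR3, chr4:1793143-1793292, + strand: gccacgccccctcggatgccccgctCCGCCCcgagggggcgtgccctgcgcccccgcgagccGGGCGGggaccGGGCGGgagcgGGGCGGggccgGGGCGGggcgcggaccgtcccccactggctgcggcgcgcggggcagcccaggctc
FGFR4, chr5:177086765-177086914, + strand: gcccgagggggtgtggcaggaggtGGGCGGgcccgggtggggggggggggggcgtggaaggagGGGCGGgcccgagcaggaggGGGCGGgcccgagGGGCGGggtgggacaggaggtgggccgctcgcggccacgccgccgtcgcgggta
MST1R, chr3:49903874-49904023, - strand: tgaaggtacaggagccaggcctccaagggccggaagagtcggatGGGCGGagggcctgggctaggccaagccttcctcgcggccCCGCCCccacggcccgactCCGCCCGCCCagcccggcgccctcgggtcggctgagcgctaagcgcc
The GC box was found 1 time in MET, 4 times in FGFR4, 5 in FGFR3 and 4 in MST1R, and was not found in the IGF1R window. Of 35116 RefSeq windows of the same length, 36.8% hold at least 1. The MET window has 19 CpG dinucleotides and the IGF1R window 31. The CCAAT box (CCAAT, in 23.5% of windows) and a forkhead motif (GTAAACA, in 1.73%) were also searched on both strands, with 0 and 0 of the 5 windows holding them. A match describes the letters in the window only.

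Levels are given as CPM, read counts scaled to a common normalised library size, and per kb of exon where genes are compared. In untreated cells FGFR4 stood highest of the 10 receptors at 40.6 ± 16.4 CPM per kb (SD, n = 3), followed by IGF1R at 11.8 ± 2.13, MET at 8.56 ± 0.368, FGFR1 at 8.03 ± 1.90 and FGFR3 at 4.94 ± 2.12 CPM per kb. MST1R followed at 1.22 ± 0.545 CPM per kb. The other 4 receptors were far lower: FGFR2 at 0.283 ± 0.0592, EPHA3 at 0.252 ± 0.0616, NTRK3 at 0.0834 ± 0.00968 and AXL at 0.0782 ± 0.00757 CPM per kb. In BT-TR1 the same scale gave MET 10.7 ± 0.650, FGFR4 14.2 ± 4.76, IGF1R 5.71 ± 0.363 and FGFR1 1.90 ± 0.237 CPM per kb, so that MET stood close to FGFR4 there. These levels are not corrected for GC content. With that correction the BT-TR1 change against untreated cells was 0.039 for MET and -0.52 for FGFR4 on the log2 scale. In bulk RNA, fewer cells that express a gene and less RNA per cell cannot be told apart.

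**Figure D1:**
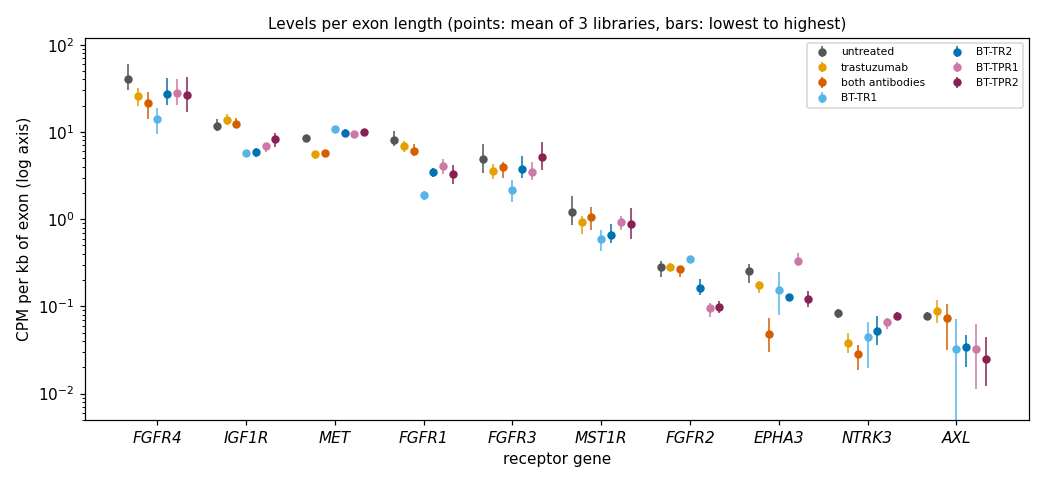
Mean level of each of the 10 receptors in the 7 groups, in CPM per kb of exon on a log axis, with bars for the lowest and highest of 3 libraries. FGFR4, IGF1R, MET, FGFR1 and FGFR3 occupy the upper part of the plot in every group, and FGFR2, EPHA3, NTRK3 and AXL the lower part.

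Under 3 days of trastuzumab, 2 of the 9 receptors tested fell (MET and NTRK3) and none rose, by edgeR's quasi-likelihood test at an adjusted p under 0.05 (background over all genes tested: 7.48% called, 3.71% up and 3.78% down). With the antibody pair, 3 fell (MET, NTRK3 and EPHA3) and none rose, against 12.4% of genes called (6.39% up, 6.02% down). In a direct comparison of the antibody pair with trastuzumab alone, 1 receptor fell (EPHA3), against 0.867% of genes called (0.487% up, 0.38% down). The pools were each compared with the same 3 untreated libraries. In BT-TR1, 1 receptor rose (MET) and 5 fell (IGF1R, FGFR1, FGFR3, FGFR4 and MST1R), against 43.6% of genes called (21.3% up, 22.3% down). In BT-TR2, 4 fell (IGF1R, FGFR1, FGFR2 and EPHA3), against 24.9% of genes called (12.7% up, 12.1% down). In BT-TPR1, 3 fell (IGF1R, FGFR1 and FGFR2), against 27.3% of genes called (12.9% up, 14.4% down). In BT-TPR2, 4 fell (IGF1R, FGFR1, FGFR2 and EPHA3), against 31.6% of genes called (15.6% up, 16% down). With only 9 receptors tested, none of these counts is read as particular to the receptors. With replicate 1 of every group left out, 0 rose and 2 fell with trastuzumab, 0 rose and 4 fell with the pair, 1 rose and 6 fell in BT-TR1, 0 rose and 5 fell in BT-TR2, 0 rose and 4 fell in BT-TPR1 and 1 rose and 5 fell in BT-TPR2. The shares of all genes called in that fit were 14%, 22.6%, 45.2%, 32.8%, 35.8% and 44.1% in the same order. The median change of the 9 receptors was -1.02 on the log2 scale in BT-TR1 and -0.52 in BT-TPR2, beside -0.0096 and -0.0098 over all genes tested. These medians are not corrected for GC content. With that correction the middle value of the 9 was that of FGFR4 in both pools, -0.52 in BT-TR1 and -0.30 in BT-TPR2. With the replicate number as a block, 8 receptors were called in BT-TR2, 5 in BT-TPR1, 7 in BT-TPR2 and 3 between BT-TPR2 and BT-TPR1, and they are named with their values below. The block also raised the share of all genes called in these comparisons, to 45.8%, 47.4%, 51.1% and 12%.

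**Figure D2:**
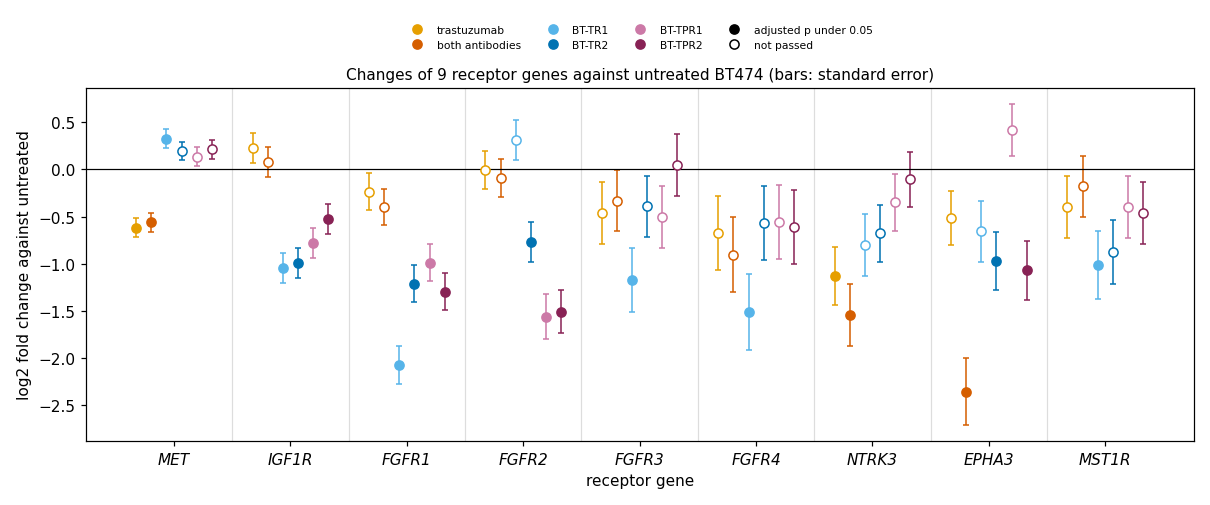
Log2 fold changes of the 9 tested receptors with standard errors in 6 comparisons with untreated cells, with filled points for those past an adjusted p of 0.05. MET is the only receptor with a filled point above 0, in BT-TR1, while IGF1R and FGFR1 are filled below 0 in all 4 pools.

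MET (ENSG00000105976.14, chromosome 7, 116672390 to 116798386, hg38 by GENCODE 29) encodes the HGF receptor. Its level in the untreated libraries was 58.2, 63.1 and 59.3 CPM, against 34.8, 41.4 and 41.4 CPM with trastuzumab and 38.3, 42.5 and 41.6 CPM with the antibody pair. Every treated library lay below every untreated one. MET fell with trastuzumab (-0.62 ± 0.10 on the log2 scale, 1.54-fold lower, edgeR adjusted p = 0.000696) and with the pair (-0.56 ± 0.10, adjusted p = 0.000939). The treated groups overlapped each other, and their difference did not pass (0.057 ± 0.10, adjusted p = 1). Fitted on the compared groups alone, the trastuzumab call was lost (-0.61, adjusted p = 0.0504, 2.53e-07 to 0.0504 over its alternatives, the last pair being the lowest and highest adjusted p).

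In the pools MET stood at or above its untreated level. BT-TR1 libraries were at 70.2, 77.3 and 78.8 CPM, all above the 3 untreated ones, and MET rose there by 0.32 ± 0.10 (adjusted p = 0.014). The other pools held 62.4, 69.2 and 75.4 CPM in BT-TR2, 62.5, 67.4 and 68.6 CPM in BT-TPR1 and 63.6, 70.7 and 75.1 CPM in BT-TPR2. BT-TR2 and BT-TPR1 each had 1 library within the untreated range, and their changes did not pass (0.20 ± 0.099, adjusted p = 0.157 and 0.14 ± 0.099, adjusted p = 0.326). BT-TPR2 had its lowest library just above the highest untreated one, and its change did not pass either (0.21 ± 0.099, adjusted p = 0.109). With the replicate block MET passed in BT-TR2 (0.19, adjusted p = 0.0288, 0.0288 to 0.55 over its alternatives) as well as BT-TPR2 (0.21, adjusted p = 0.0155, 0.0155 to 0.44 over its alternatives). The BT-TR1 call was lost when GC content was corrected (0.039, adjusted p = 0.709, 0.000445 to 0.709 over its alternatives), and also with library size alone as the scale (adjusted p = 0.0871), with no filter (adjusted p = 0.17) and on the compared groups alone (adjusted p = 0.0796).

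MST1R (ENSG00000164078.12, chromosome 3, 49887002 to 49903873), the receptor closest to MET in sequence family, was lower throughout. Untreated libraries held 9.67, 4.45 and 5.04 CPM, and those of BT-TR1 3.93, 3.05 and 2.24 CPM. The groups did not overlap, and MST1R fell in BT-TR1 (-1.02 ± 0.36, adjusted p = 0.0288). BT-TR2 held 4.62, 2.93 and 2.82 CPM, with 1 library inside the untreated range, and missed the threshold (-0.88 ± 0.34, adjusted p = 0.0654) but passed with the replicate block (-0.86, adjusted p = 0.000472, 0.000256 to 0.363 over its alternatives). In BT-TPR2 (7.04, 3.77 and 3.07 CPM) the change of -0.46 ± 0.33, adjusted p = 0.307 did not pass, and with the block it did (-0.47, adjusted p = 0.0281, 0.0281 to 0.976 over its alternatives). The other groups overlapped the untreated range, at 5.66, 5.28 and 3.58 CPM with trastuzumab, 7.20, 5.68 and 3.99 CPM with the pair and 5.75, 3.90 and 4.81 CPM in BT-TPR1, and did not pass. Replicate 1 was the highest library in 7 of 7 groups. Without untreated replicate 1 the BT-TR1 change was -0.57, adjusted p = 0.221, 0.000131 to 0.221 over its alternatives; leaving out BT-TR1 replicate 2 or 3 also ended the call (adjusted p = 0.0791 and 0.115), as did the GC correction (-0.38, adjusted p = 0.172). An antisense transcript, AC105935.1, shares 29 exonic bases with MST1R, and whether counting used strand is not given in the sources used here.

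**Figure D3:**
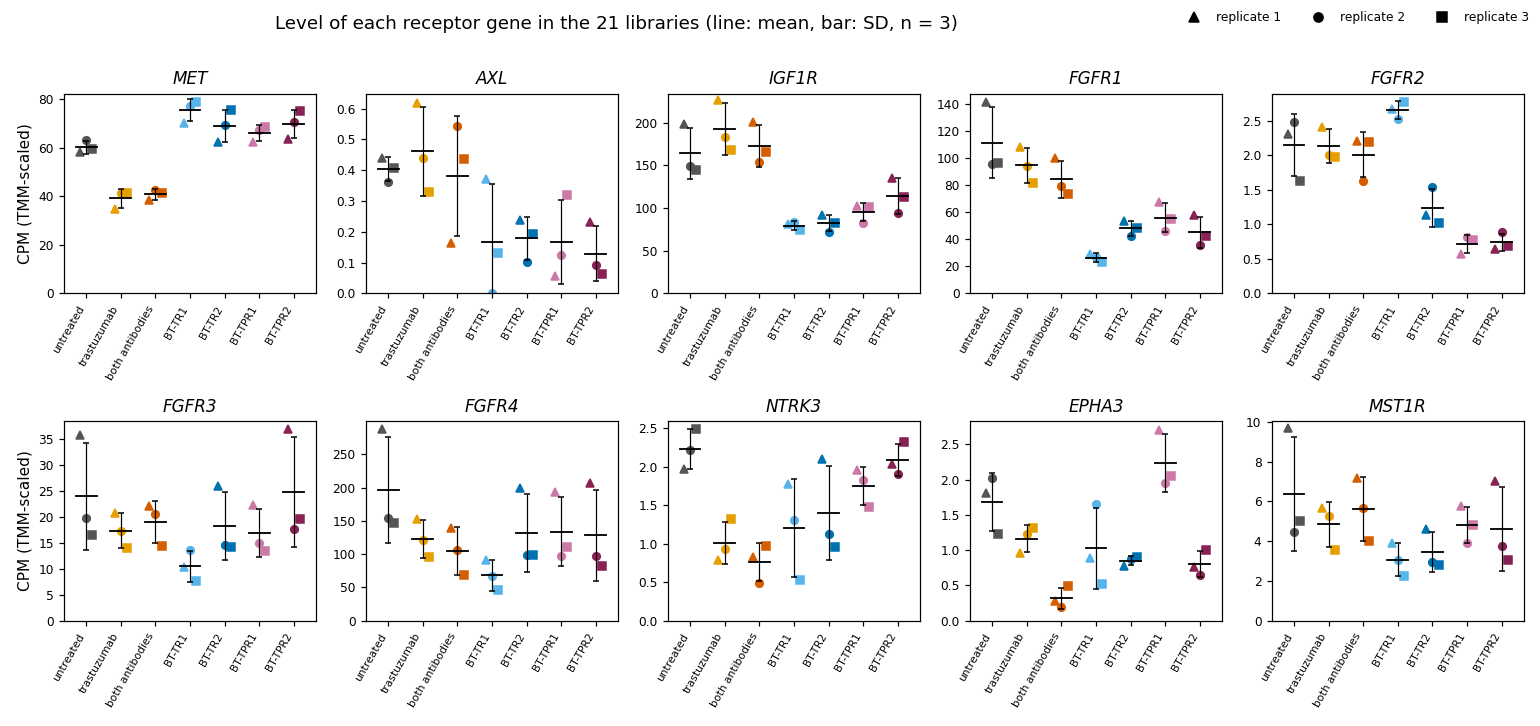
CPM of each of the 10 receptors in every library, in 7 groups of 3, with a line at the group mean and a bar for the SD. MET is lowest in the antibody-treated groups, IGF1R and FGFR1 lie below the untreated libraries in all 4 pools, and the replicate 1 point is the highest of its group for FGFR4 and MST1R.

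IGF1R (ENSG00000140443.13, chromosome 15, 98648539 to 98964530), the receptor for IGF1 and IGF2, fell in every pool, and its changes under the antibodies did not pass the test. Untreated libraries were at 198, 150.0 and 144 CPM, trastuzumab libraries at 227, 183 and 168 CPM and those with the antibody pair at 201, 154 and 165 CPM. These 3 groups overlapped, and neither change passed (0.23 ± 0.16, adjusted p = 0.41 and 0.077 ± 0.16, adjusted p = 0.803). BT-TR1 had 81.1, 83.7 and 73.9 CPM and BT-TR2 92.2, 72.5 and 82.9 CPM. BT-TPR1 had 102, 82.99 and 101 CPM and BT-TPR2 136, 94.3 and 113 CPM. Every pool library lay below every untreated one.

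IGF1R was 2.06-fold lower in BT-TR1 than in untreated cells (-1.04 ± 0.16, adjusted p = 6.97e-05) and 1.99-fold lower in BT-TR2 (-0.99 ± 0.16, adjusted p = 0.000162). The decrease was -0.78 ± 0.16 in BT-TPR1 (adjusted p = 0.00124) and -0.52 ± 0.16 in BT-TPR2 (adjusted p = 0.0163). Tested directly, the TPR pools were higher than the TR pools by 0.36 ± 0.11 (adjusted p = 0.0268); this call was lost without any 1 of BT-TR1 replicate 3, BT-TR2 replicate 2 or 3, BT-TPR1 replicate 1 or 3 and BT-TPR2 replicate 1 (adjusted p up to 0.085). In BT-TPR2 the change was -0.35, adjusted p = 0.116, 1e-05 to 0.116 over its alternatives without untreated replicate 1, and the call was also lost without BT-TPR2 replicate 2 (adjusted p = 0.0865) or 3 (adjusted p = 0.0515) and on the compared groups alone (adjusted p = 0.0834).

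FGFR1 (ENSG00000077782.19) fell in all 4 pools, with BT-TR1 lowest. Untreated libraries held 141, 95.4 and 96.5 CPM, trastuzumab libraries 108, 93.7 and 81.7 CPM and those with the antibody pair 99.6, 79.5 and 73.2 CPM. The antibody changes did not pass (-0.23 ± 0.19, adjusted p = 0.507 and -0.40 ± 0.19, adjusted p = 0.184). Under the pair FGFR1 passed with the GC correction (-0.45, adjusted p = 0.0489, 0.000373 to 0.628 over its alternatives). The level was below that of the same-numbered untreated library in 3 of 3 replicates, but the replicate number was not taken as a pairing in this comparison. BT-TR1 libraries were at 29.4, 26.6 and 22.8 CPM and those of BT-TR2 at 53.3, 42.3 and 48.5 CPM. BT-TPR1 libraries were at 67.2, 45.7 and 54.9 CPM and those of BT-TPR2 at 57.8, 35.4 and 42.4 CPM. No pool library reached the lowest untreated one, and BT-TR1 lay below the other 3 pools without overlap.

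FGFR1 was 4.21-fold lower in BT-TR1 than in untreated cells (-2.07 ± 0.20, adjusted p = 4.4e-07). The change was -1.21 ± 0.20, adjusted p = 0.00018 in BT-TR2, -0.99 ± 0.19, adjusted p = 0.000994 in BT-TPR1 and -1.30 ± 0.20, adjusted p = 6.1e-05 in BT-TPR2. The 2 trastuzumab-resistant pools differed, BT-TR2 being higher by 0.86 ± 0.20 (adjusted p = 0.00985), 1 of 2 receptors called between them where 17.7% of genes were called (9.64% up, 8.09% down). That call was lost without BT-TR1 replicate 3 (adjusted p = 0.06) or BT-TR2 replicate 1 (adjusted p = 0.0575; 1.22e-06 to 0.06 over its alternatives). The difference between BT-TPR2 and BT-TPR1 did not pass (-0.31 ± 0.19, adjusted p = 0.531), and did so with the replicate block (-0.32, adjusted p = 0.0391, 0.00832 to 0.846 over its alternatives). The mean of the TPR pools was above that of the TR pools by 0.50 ± 0.14 (adjusted p = 0.0159), although BT-TPR2 (45.2 ± 11.5 CPM, SD, n = 3) was not above BT-TR2 (48.04 ± 5.49 CPM) and BT-TR1 (26.3 ± 3.28 CPM) was lowest. It was 1 of 3 receptors called in that comparison, with 19.7% of genes called (8.45% up, 11.3% down). It was lost without BT-TPR1 replicate 1 (adjusted p = 0.0537) or BT-TPR2 replicate 1 (adjusted p = 0.0545; 1.71e-06 to 0.0545 over its alternatives). FGFR1 shares exonic bases with the opposite-strand genes LETM2 (138) and AC087623.1 (156), which had 350 and 149 counts in all over the 21 libraries.

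FGFR2 (ENSG00000066468.20, chromosome 10, 121478334 to 121598458) was near 2 CPM in untreated cells and fell in 3 of the 4 pools. Its libraries held 2.31, 2.48 and 1.63 CPM untreated, 2.41, 2.004 and 1.98 CPM with trastuzumab and 2.20, 1.63 and 2.19 CPM with the antibody pair. BT-TR1 held 2.67, 2.52 and 2.77 CPM, above the untreated libraries, a change of 0.31 ± 0.21 that did not pass (adjusted p = 0.239). BT-TR2 held 1.14, 1.54 and 1.03 CPM, BT-TPR1 0.575, 0.818 and 0.769 CPM and BT-TPR2 0.640, 0.884 and 0.689 CPM. These 3 pools lay below every untreated, treated and BT-TR1 library.

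FGFR2 fell in BT-TPR1 (-1.56 ± 0.24, adjusted p = 8.48e-05), 2.95-fold below untreated, and in BT-TPR2 (-1.51 ± 0.23, adjusted p = 7.1e-05). In BT-TR2 the change was -0.77 ± 0.22, adjusted p = 0.0141. The BT-TR2 call was lost without untreated replicate 2 (adjusted p = 0.0732), BT-TR2 replicate 1 (adjusted p = 0.0524) or 3 (adjusted p = 0.068), and with no filter, with replicates 2 and 3 alone or on the compared groups alone (0.00333 to 0.0967 over its alternatives). BT-TR2 was below BT-TR1 (-1.08 ± 0.23, adjusted p = 0.006), and the TPR pools below the TR pools (-1.31 ± 0.17, adjusted p = 2.08e-05).

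FGFR3 (ENSG00000068078.17, chromosome 4, 1793293 to 1808872) and FGFR4 (ENSG00000160867.14, chromosome 5, 177086886 to 177098144) had their highest library in replicate 1 in 6 and 7 of 7 groups. FGFR3 held 35.7, 19.8 and 16.5 CPM in untreated cells and 10.3, 13.6 and 7.65 CPM in BT-TR1, which do not overlap. It fell in BT-TR1 (-1.17 ± 0.34, adjusted p = 0.0104), but the change was -0.32, adjusted p = 0.176, 4.03e-09 to 0.176 over its alternatives after GC correction, -0.75, adjusted p = 0.0952 without untreated replicate 1 and -0.98, adjusted p = 0.0578 without BT-TR1 replicate 3. The other groups overlapped the untreated range: 20.6, 17.3 and 14.1 CPM with trastuzumab, 22.04, 20.6 and 14.4 CPM with the pair, 25.8, 14.6 and 14.2 CPM in BT-TR2, 22.2, 14.9 and 13.5 CPM in BT-TPR1 and 36.9, 17.7 and 19.6 CPM in BT-TPR2. None of their changes passed. With the replicate block, FGFR3 passed against untreated cells in BT-TPR1 (-0.48, adjusted p = 0.0201, 0.0201 to 0.893 over its alternatives), and also when BT-TPR2 was set against BT-TPR1 (0.53, adjusted p = 0.0376, 0.00259 to 0.882 over its alternatives).

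FGFR4 held 288, 154 and 147 CPM in the untreated libraries, 153, 121 and 95.8 CPM with trastuzumab and 139.6, 106 and 68.8 CPM with the antibody pair. BT-TR1 held 91.7, 67.7 and 45.8 CPM, all below the untreated libraries. FGFR4 fell in BT-TR1 (-1.51 ± 0.40, 2.85-fold lower, adjusted p = 0.00582), and the change was -0.52, adjusted p = 0.0219, 1.13e-22 to 0.0445 over its alternatives after GC correction. The lowest of these values came from the fit with no filter on low counts. In the other pools the levels were 199, 98.2 and 98.6 CPM in BT-TR2, 193, 97.4 and 110.2 CPM in BT-TPR1 and 207, 96.7 and 81.5 CPM in BT-TPR2. Replicate 1 lay 1.41 to 2.32 times above the mean of its 2 fellow libraries over the 7 groups.

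Outside BT-TR1 no FGFR4 change against untreated cells passed in the filtered fit on all libraries with neither a block nor a GC correction. The change was -0.67 ± 0.39, adjusted p = 0.33 under trastuzumab and -0.90 ± 0.39, adjusted p = 0.141 under the pair. With the block FGFR4 passed under trastuzumab (-0.62, adjusted p = 0.0011, 0.000347 to 0.755 over its alternatives). It also passed with the block in BT-TR2 (-0.58, adjusted p = 0.000825, 0.000825 to 0.795 over its alternatives), BT-TPR1 (-0.54, adjusted p = 0.00143, 0.00143 to 0.833 over its alternatives) and, among the pools, BT-TPR2 (-0.65, adjusted p = 0.000202, 0.000202 to 0.748 over its alternatives). A fit with no filter on low counts called FGFR4 under trastuzumab (adjusted p = 0.000347), under the pair (adjusted p = 1e-07), in BT-TR2 (adjusted p = 0.00134), BT-TPR1 (adjusted p = 0.00191) and BT-TPR2 (adjusted p = 0.000469). The changes stayed close to those of the filtered fit, at -0.66 ± 0.14 under trastuzumab and -0.89 ± 0.14 under the pair. These calls rest on the smaller standard error of the unfiltered fit and not on a larger change. Within each replicate number, FGFR4 was lower than the untreated library of the same number in both antibody groups, BT-TR2, BT-TPR1 and BT-TPR2. For the antibody pair the replicate number was not taken as a pairing. With the GC correction and no block, the FGFR4 change was -0.34, adjusted p = 0.177 under trastuzumab, -0.49, adjusted p = 0.0408 under the pair, -0.33, adjusted p = 0.13 in BT-TR2, -0.31, adjusted p = 0.148 in BT-TPR1 and -0.30, adjusted p = 0.163 in BT-TPR2. Each was smaller by over 1.5 times than without the correction. With both correction and block FGFR4 passed under trastuzumab (-0.34, adjusted p = 0.00332) and in BT-TR2 (-0.33, adjusted p = 0.0019). It did so in BT-TPR1 (-0.31, adjusted p = 0.00325) and BT-TPR2 (-0.31, adjusted p = 0.00296). With replicates 2 and 3 alone FGFR4 passed under the pair (-0.78, adjusted p = 0.00511) and in BT-TR2 (-0.61, adjusted p = 0.0149). That fit also called BT-TPR1 (-0.52, adjusted p = 0.0305) and BT-TPR2 (-0.75, adjusted p = 0.00294), but not trastuzumab.

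**Figure D4:**
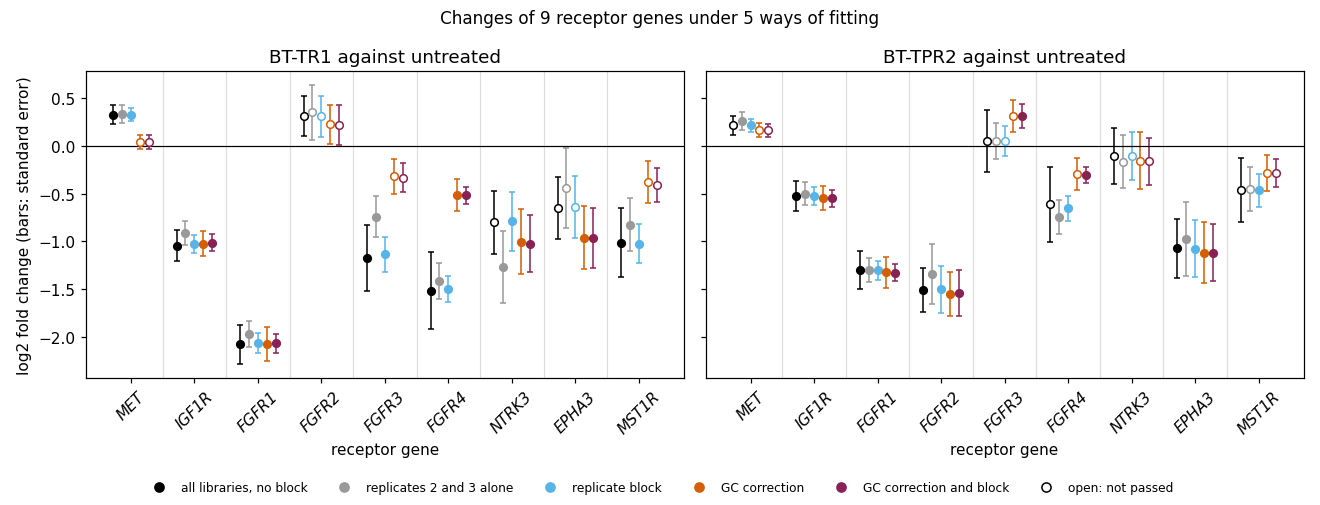
Log2 fold changes with standard errors of the 9 tested receptors in BT-TR1 and BT-TPR2 against untreated cells, from all libraries, replicates 2 and 3 alone, the replicate block, the GC correction and both together; open points did not pass. In BT-TR1 the GC correction moves FGFR4 from -1.51 to a smaller decrease and MET to near 0, while IGF1R and FGFR1 keep filled points below 0 in both pools.

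NTRK3 (ENSG00000140538.16, chromosome 15, 87859751 to 88256768), the neurotrophin-3 receptor, was near 2 CPM in untreated cells, with 36, 43 and 55 reads per library, and was lowest with the antibodies. Untreated libraries held 1.98, 2.22 and 2.50 CPM, trastuzumab libraries 0.785, 0.928 and 1.32 CPM and antibody-pair libraries 0.824, 0.494 and 0.974 CPM. All 6 treated libraries were below the untreated ones. NTRK3 fell with the pair (-1.54 ± 0.32, adjusted p = 0.00381) and with trastuzumab (-1.13 ± 0.31, adjusted p = 0.0323). The trastuzumab call was lost on the compared groups alone (adjusted p = 0.0662) and without untreated replicate 2 or 3 or trastuzumab replicate 1 or 2 (adjusted p = 0.082, 0.0948, 0.11 and 0.107; 0.00239 to 0.11 over its alternatives). In the pools NTRK3 held 1.78, 1.31 and 0.528 CPM in BT-TR1, 2.10, 1.13 and 0.962 CPM in BT-TR2, 1.95, 1.82 and 1.47 CPM in BT-TPR1 and 2.04, 1.91 and 2.32 CPM in BT-TPR2. No pool change passed. BT-TR1 came closest (-0.80 ± 0.33, adjusted p = 0.0568) and passed with the replicate block (-0.79, adjusted p = 0.0317, 0.00671 to 0.242 over its alternatives), as did BT-TR2 (-0.69, adjusted p = 0.0426, 0.0096 to 0.34 over its alternatives).

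EPHA3 (ENSG00000044524.10, chromosome 3, 89107524 to 89482134), an ephrin-A receptor, was the only receptor of 9 called between the antibody pair and trastuzumab alone. Untreated libraries held 1.81, 2.02 and 1.22 CPM, trastuzumab libraries 0.953, 1.22 and 1.32 CPM and antibody-pair libraries 0.275, 0.198 and 0.487 CPM (5, 4 and 10 reads). The pair lay below both other groups without overlap. With the pair EPHA3 fell against untreated cells (-2.36 ± 0.35, 5.12-fold lower, adjusted p = 0.000183) and against trastuzumab (-1.84 ± 0.37, adjusted p = 0.0152). With trastuzumab alone the change was -0.52 ± 0.29, adjusted p = 0.309. The difference from trastuzumab was lost with replicates 2 and 3 alone (adjusted p = 0.0807), on the compared groups alone (adjusted p = 0.105) and without trastuzumab replicate 2 or 3 or antibody-pair replicate 1 or 2 (adjusted p = 0.0609, 0.0825, 0.0888 and 0.133; 0.00179 to 0.133 over its alternatives).

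EPHA3 also differed between the pools resistant to the antibody pair. BT-TPR1 held 2.70, 1.95 and 2.05 CPM and BT-TPR2 0.756, 0.651 and 1.003 CPM, which do not overlap. EPHA3 was lower in BT-TPR2 than in BT-TPR1 (-1.49 ± 0.31, adjusted p = 0.00717), the only receptor of 9 called between them, where 3.45% of genes were called (1.64% up, 1.81% down). That call was lost without BT-TPR1 replicate 1 (adjusted p = 0.0503) and with replicates 2 and 3 alone (adjusted p = 0.067; 0.000705 to 0.067 over its alternatives). BT-TR1 held 0.890, 1.65 and 0.528 CPM and BT-TR2 0.780, 0.875 and 0.898 CPM. Against untreated cells EPHA3 fell in BT-TR2 (-0.97 ± 0.31, adjusted p = 0.0273; 0.00855 to 0.113 over its alternatives) and in BT-TPR2 (-1.07 ± 0.31, adjusted p = 0.0132; 0.0029 to 0.0704 over its alternatives), and its changes in BT-TR1 (-0.65 ± 0.32, adjusted p = 0.108) and BT-TPR1 (0.42 ± 0.28, adjusted p = 0.276) did not pass. The BT-TR1 change passed without BT-TR1 replicate 2 (-1.14, adjusted p = 0.0206, 0.0141 to 0.413 over its alternatives) and with the GC correction (-0.96, adjusted p = 0.0269). The BT-TR2 call was lost without untreated replicate 1 or 2 or any 1 of the BT-TR2 libraries, and the BT-TPR2 call without untreated replicate 2 or BT-TPR2 replicate 2.

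AXL (ENSG00000167601.11, chromosome 19, 41219203 to 41261766), the GAS6 receptor, was near the limit of detection, with 0 to 11 reads in a library. Untreated libraries had 8, 7 and 9 reads, trastuzumab libraries 11, 9 and 7 and antibody-pair libraries 3, 11 and 9. BT-TR1 had 5, 0 and 1 reads, BT-TR2 4, 2 and 3, BT-TPR1 1, 2 and 5 and BT-TPR2 4, 2 and 1. A count of 0 allows up to 3 reads, which is 0.136 to 0.396 CPM depending on the library. The libraries differ in depth. In CPM, untreated libraries held 0.440, 0.362 and 0.408 CPM and those of BT-TR1 0.371, 0 and 0.132 CPM, which overlap. Both antibody-treated groups overlapped the untreated range too. BT-TR2 (highest library 0.240 CPM), BT-TPR1 (0.320 CPM) and BT-TPR2 (0.233 CPM) lay below every untreated library, on few reads each. In a fit with no filter no AXL change passed, the lowest adjusted p being 0.076 in BT-TPR2 against untreated cells (-1.59 ± 0.64).

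The ligands of these receptors were mostly out of reach of the test: of 30 in the list, 23 had a row and 6 were tested. HGF had 0 to 2 reads in each group of 3 libraries and NTF3 0 to 6. The tested ligands were GAS6, MST1, EFNA1, EFNA3, EFNA4 and EFNA5. In BT-TR1 4 of 6 fell and none rose (median -1.05, all genes -0.0096), with GAS6 at 1.30 ± 0.447 CPM (SD, n = 3) against 4.85 ± 2.94 untreated (-1.82 ± 0.48, adjusted p = 0.00525). In BT-TR2 3 of 6 fell, in BT-TPR1 3 and in BT-TPR2 0. The shares of all genes that fell were 22.3% in BT-TR1, 12.1% in BT-TR2, 14.4% in BT-TPR1 and 16% in BT-TPR2. In BT-TPR2 1 rose and 2 fell with the GC correction, and 1 rose and 2 fell with replicates 2 and 3 alone. The fit on replicates 2 and 3 called 44.1% of all genes there in either direction. EFNA1, an ephrin-A ligand, changed by -1.11 ± 0.26 in BT-TR1 (adjusted p = 0.00241) and by -0.80 ± 0.25 in BT-TPR1 (adjusted p = 0.0249). With trastuzumab none was called, and with the antibody pair 1 fell, EFNA5 (-0.79 ± 0.18, adjusted p = 0.00596). The shares of all genes called were 7.48% with trastuzumab and 12.4% with the pair (6.02% down).

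Genes that process ligands or act as co-receptors (18 tested of 26) include the IGF-binding proteins, which hold IGF1 and IGF2 outside the cell. In BT-TR1 2 rose and 10 fell, in BT-TR2 0 rose and 11 fell, in BT-TPR1 0 rose and 8 fell and in BT-TPR2 1 rose and 8 fell, where 22.3%, 12.1%, 14.4% and 16% of all genes fell. The medians were -0.76, -0.59, -0.80 and -0.73, beside -0.0096, -0.0024, -0.0027 and -0.0098 over all genes. With replicates 2 and 3 alone the pools gave 2 rises, both in BT-TR1, and 12 to 13 decreases each. That fit called 45.2%, 32.8%, 35.8% and 44.1% of all genes in either direction, in the order of pools above. IGFBP5 had 12128 ± 308 CPM in untreated cells, 1423 ± 163 in BT-TR1, 1998 ± 201 in BT-TR2, 4247 ± 729.9 in BT-TPR1 and 2012 ± 237 in BT-TPR2. Its change was -3.09 ± 0.14 in BT-TR1 (adjusted p = 2.33e-11). BT-TPR2 and BT-TPR1 differed in it by -1.08 ± 0.14 (adjusted p = 7.11e-05).

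IGFBP3 rose under antibody and fell in the pools. It rose with trastuzumab by 1.31 ± 0.13 (adjusted p = 9.16e-06) and with the pair by 1.27 ± 0.13 (adjusted p = 3.85e-06). In the pools the change was -2.56 ± 0.16 in BT-TR1 (adjusted p = 1.06e-09), -1.58 ± 0.14 in BT-TR2, -1.99 ± 0.15 in BT-TPR1 and -1.58 ± 0.14 in BT-TPR2 (adjusted p = 1.44e-07). These values share the 3 untreated libraries. IGFBP2 fell with the antibody pair (-1.10 ± 0.34) and in BT-TR1 (-2.49 ± 0.37, adjusted p = 4.68e-05). Of the list, 2 rose and 1 fell with trastuzumab, where 3.71% of all genes rose and 3.78% fell. With the pair 1 rose and 3 fell, where 6.39% of all genes rose and 6.02% fell. CD44, some splice forms of which act as a co-receptor of MET, changed by 0.69 ± 0.13 with trastuzumab (adjusted p = 0.00275), and ST14, a protease that activates HGF, by -1.07 ± 0.32 with the pair (adjusted p = 0.0347).

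Among 25 tested adaptors and relays, 4 rose and 0 fell with trastuzumab and 2 rose and 3 fell with the pair. Of all genes, 3.71% rose and 3.78% fell with trastuzumab, and 6.39% rose and 6.02% fell with the pair. IRS2, an adaptor of IGF1R and the insulin receptor, rose by 1.003 ± 0.20 with trastuzumab (adjusted p = 0.00447) and by 1.51 ± 0.20 with the pair (adjusted p = 5.39e-05), from 3.002 ± 0.763 CPM untreated. IRS1 fell with the pair (-0.46 ± 0.15, adjusted p = 0.0471). In BT-TR1, where IGF1R itself was lower, 7 rose and 11 fell (median -0.33, 43.6% of all genes called), with IRS2 at -1.42 ± 0.26 (adjusted p = 0.000337) and IRS1 at -1.34 ± 0.16 (adjusted p = 3.45e-06). In BT-TR2 2 rose and 4 fell, in BT-TPR1 6 rose and 3 fell and in BT-TPR2 7 rose and 2 fell. These counts lie near the shares of all genes called there (24.9%, 27.3% and 31.6%). The GC correction moved the split in BT-TR2, where 6 rose and 5 fell, and with replicates 2 and 3 alone 4 rose and 4 fell. The fit on replicates 2 and 3 called 32.8% of all genes in BT-TR2. PIK3R1, the regulatory subunit of PI3K, fell in BT-TPR2 (-1.38 ± 0.12, adjusted p = 1.24e-07) and differed from BT-TPR1 by -0.90 ± 0.12 (adjusted p = 0.000148). FRS2, the adaptor of the FGF receptors, changed by 0.69 ± 0.15 with trastuzumab, 0.60 ± 0.15 in BT-TPR1 and 0.56 ± 0.15 in BT-TPR2, each past the threshold.

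The list of feedback inhibitors holds the Sprouty and SPRED proteins, which restrain RAS-ERK signalling downstream of receptor kinases, and the DUSP phosphatases that act on ERK. With the antibody pair 6 rose and 1 fell of 23 tested, where 6.39% of all genes rose and 6.02% fell. Against trastuzumab alone 6 rose and 0 fell, where 0.867% of all genes were called. SPRY4 rose by 1.25 ± 0.17 with the pair (adjusted p = 5.31e-05), SPRY1 by 1.12 ± 0.13 (adjusted p = 7.8e-06) and DUSP6 by 1.05 ± 0.12 (adjusted p = 1.43e-05). SPRED1 was higher with the pair than with trastuzumab by 1.05 ± 0.13 (adjusted p = 0.000289). With replicates 2 and 3 alone 7 rose and 2 fell with the pair and 5 rose and 0 fell against trastuzumab. In that fit 22.6% and 0.87% of all genes were called. With trastuzumab alone 1 rose and 2 fell, where 3.71% of all genes rose and 3.78% fell, and SPRY1 was at 0.52 ± 0.13 (adjusted p = 0.017). In the pools 9 rose and 4 fell in BT-TR1, 7 rose and 6 fell in BT-TR2, 2 rose and 6 fell in BT-TPR1 and 4 rose and 8 fell in BT-TPR2, where 43.6%, 24.9%, 27.3% and 31.6% of all genes were called. SPRY2 and DUSP5 led the TPR pools by size: SPRY2 changed by -1.17 ± 0.18 in BT-TPR1 and -0.92 ± 0.17 in BT-TPR2, and DUSP5 by 0.82 ± 0.13 and 0.89 ± 0.13.

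Other receptor kinases of the same families, 15 tested of 19, fell or did not pass in the pools. In BT-TR1 0 rose and 13 fell (median -1.47, all genes -0.0096), in BT-TR2 0 rose and 10 fell, in BT-TPR1 0 rose and 7 fell and in BT-TPR2 0 rose and 9 fell, where 22.3%, 12.1%, 14.4% and 16% of all genes fell. With replicates 2 and 3 alone 0 rose and 13 fell, 0 rose and 11 fell, 0 rose and 8 fell and 0 rose and 13 fell in that order. That fit called more of all genes, 45.2%, 32.8%, 35.8% and 44.1% in either direction. EPHA2, an ephrin-A receptor like EPHA3, changed by -2.04 ± 0.27 in BT-TR1 (adjusted p = 1.48e-05), -2.27 ± 0.26 in BT-TPR1 and -1.68 ± 0.25 in BT-TPR2 (adjusted p = 6.09e-05). MERTK, which with AXL and TYRO3 forms a family, changed by -1.67 ± 0.14 in BT-TR2 (adjusted p = 8.77e-08) and -1.37 ± 0.14 in BT-TPR2 (adjusted p = 6.75e-07), and differed between BT-TPR2 and BT-TPR1 by -0.91 ± 0.14 (adjusted p = 0.000644). INSR, the insulin receptor, rose with the antibody pair by 0.68 ± 0.18 (adjusted p = 0.0184), the only member of the list to rise in that comparison, while 4 fell. With trastuzumab 0 rose and 4 fell, led by EPHA6 (-1.75 ± 0.30, adjusted p = 0.00108). The shares of all genes were 6.39% up and 6.02% down with the pair, and 3.71% up and 3.78% down with trastuzumab.

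**Figure D5:**
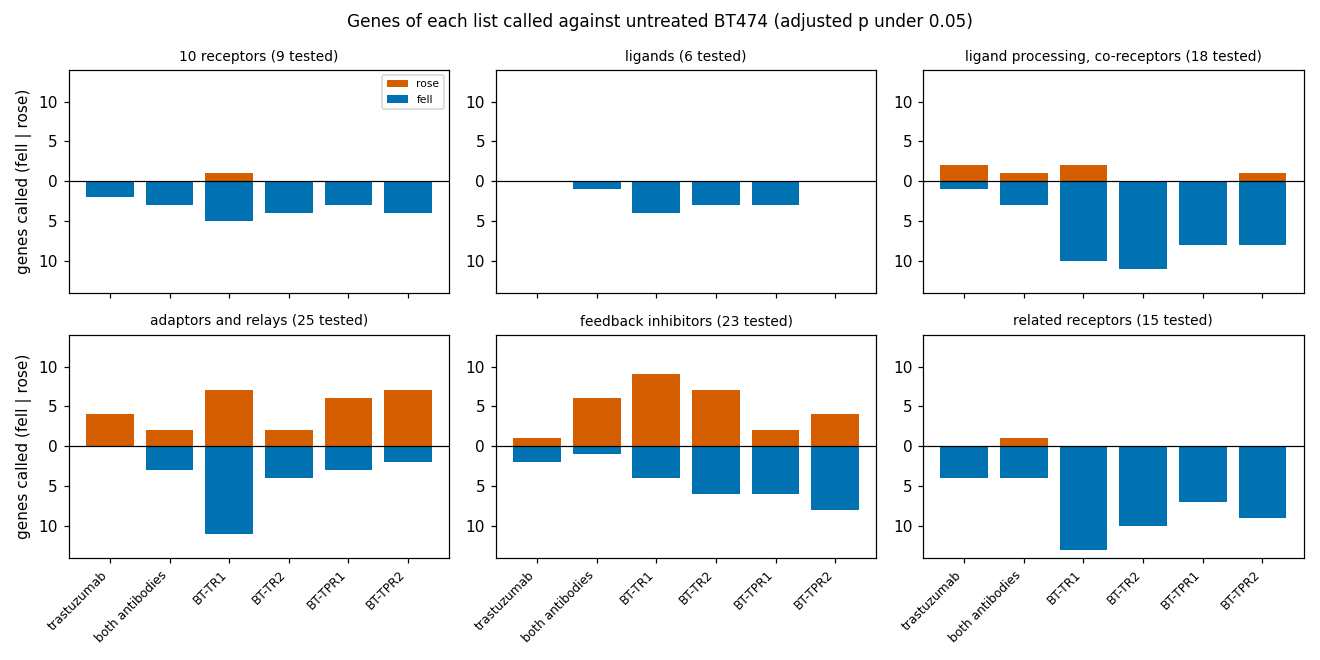
Number of tested genes of the 10 receptors and of 5 lists around them that rose (bars up) or fell (bars down) in each comparison with untreated cells. Decreases outnumber increases for ligand processing genes and related receptors in all 4 pools. Among the feedback inhibitors 6 rose and 1 fell under the antibody pair, where 6.39% of all genes rose and 6.02% fell.

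The genes whose level was most like that of each receptor, by Pearson's r of log2 CPM over the 21 libraries, are given as a description, since libraries of a group share treatment, replicate number and composition. MET lay closest to BUB1 (r = 0.986) and RACGAP1 (r = 0.972), and MST1R to ABCC10 (r = 0.929) and RCE1 (r = 0.925). IGF1R lay closest to H6PD (r = 0.966) and AMY2B (r = 0.963). FGFR1 was most like PTK7 (r = 0.973) and E2F2 (r = 0.965), FGFR2 like SUPT16H (r = 0.946) and KLHL7 (r = 0.942), FGFR3 like STX1A (r = 0.952) and UNC93B1 (r = 0.930) and FGFR4 like SEMA3F (r = 0.989) and ATP2A3 (r = 0.985). NTRK3 was most like PSRC1 (r = 0.803) and CYTH3 (r = 0.785), and EPHA3 like RP11-497G19.2 (r = 0.797) and SYNE1 (r = 0.797).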

How the data were processed

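RNA-seq gene counts of 21 libraries of BT474 cells were analysed, 3 in each of 7 groups taken from the sample titles and treatments. The deposited count table holds whole-number read counts per gene. Bowtie2, featureCounts and DESeq2 are named, with build hg38 and no versions, in the submitters' processing notes. The table of log2-scale variance-stabilized values deposited by the authors served only as an alternative input. Counts were tested with edgeR 4.0.16 (R 4.3.3; TMM scaling, quasi-likelihood F test, 1 fit over all 21 libraries with 14 residual degrees of freedom) after filterByExpr (minimum count 10, minimum total 15), which kept 17650 of 37355 genes. Benjamini-Hochberg adjustment ran over all tested genes in each of 10 comparisons, with calls at an adjusted p under 0.05. Self-tests ran on simulated data. Alternatives were no filter, RLE scaling (DESeq2's size factors), library size alone, DESeq2 1.42.0, limma 3.58.1, the compared groups alone, a replicate block, replicates 2 and 3 alone, GC correction by a spline (5 degrees of freedom, 17554 genes), both together, and leaving out each library. The replicate numbers come from the labels. In 7 of 10 comparisons every same-numbered pair of libraries deviated from its group means together (lowest correlation in any of them 0.13), and in these the numbers were taken to pair the libraries. Deviations from a mean of 3 libraries are tied to each other, and replicate 1 shares a GC trend across the groups. The correlations cannot tell a pairing of the libraries from that trend. The main fit held 1 term per group and no block, so its calls leave this pairing out. Receptor calls that the block changed in these comparisons are given with each receptor. Positions, exon lengths and GC content are from GENCODE 29 (hg38), whose gene identifiers matched 36530 of 37355 rows without version numbers. Levels carry the SD of 3 libraries and fold changes the standard error of the fit. Named genes were the 10 receptors, the list genes with the largest called changes, up to 4 per list and comparison, and the 2 most similar genes per receptor. HGF, NTF3 and the marker genes were named for their role. The receptors and the lists were chosen with earlier results of these data known.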

Additional observations from a re-analysis of the deposited data

Results flagged for a closer look

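Between pools made resistant in the same way, 3 receptors differed in a test of the difference itself. FGFR1 and FGFR2 were called between BT-TR2 and BT-TR1, where 17.7% of all genes were called. EPHA3 was called between BT-TPR2 and BT-TPR1, where 3.45% of all genes were called. With 9 receptors tested, these counts are not read as particular to the receptors. FGFR1 was higher in BT-TR2 than in BT-TR1 by 0.86 on the log2 scale (edgeR adjusted p = 0.00985), with all 3 BT-TR2 libraries above the 3 of BT-TR1. FGFR2 differed in the other direction between the same pools, at -1.08 for BT-TR2 against BT-TR1 (adjusted p = 0.006), with all 3 BT-TR2 libraries below. EPHA3 was at -1.49 for BT-TPR2 against BT-TPR1 (adjusted p = 0.00717), again with no overlap of the libraries. The FGFR1 call was lost without BT-TR1 replicate 3 (adjusted p = 0.06) or BT-TR2 replicate 1 (adjusted p = 0.0575). The EPHA3 call was lost without BT-TPR1 replicate 1 (adjusted p = 0.0503) and with replicates 2 and 3 alone (adjusted p = 0.067). Each pool was compared through its own 3 libraries, and what sets the pools apart was not tested.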

How the results depend on the processing

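The number of all genes called was 1321 for trastuzumab, 2190 for the antibody pair, 153 for the pair against trastuzumab, 7693 for BT-TR1, 4387 for BT-TR2, 4815 for BT-TPR1, 5575 for BT-TPR2, 3129 for BT-TR2 against BT-TR1, 609 for BT-TPR2 against BT-TPR1 and 3484 for the TPR against the TR pools. With the replicate block, the number of genes called became 4629 for trastuzumab, 5750 for the antibody pair, 388 for the pair against trastuzumab, 8076 for BT-TR2, 8364 for BT-TPR1, 9019 for BT-TPR2, 7555 for BT-TR2 against BT-TR1, 2119 for BT-TPR2 against BT-TPR1 and 6780 for the TPR against the TR pools. With the GC correction, the number of genes called became 2774 for trastuzumab, 3721 for the antibody pair, 259 for the pair against trastuzumab, 1670 for BT-TR2 against BT-TR1 and 1399 for BT-TPR2 against BT-TPR1. With the GC correction and the replicate block together, the number of genes called became 4822 for trastuzumab, 5770 for the antibody pair, 482 for the pair against trastuzumab, 8455 for BT-TR2, 8789 for BT-TPR1, 9129 for BT-TPR2, 2733 for BT-TPR2 against BT-TPR1 and 6234 for the TPR against the TR pools. With replicates 2 and 3 alone, the number of genes called became 2472 for trastuzumab, 4008 for the antibody pair and 5307 for BT-TR2 against BT-TR1. Fitted on the compared groups alone, the number of genes called became 381 for trastuzumab, 896 for the antibody pair, 55 for the pair against trastuzumab, 2682 for BT-TR2, 3111 for BT-TPR1, 3060 for BT-TPR2, 1274 for BT-TR2 against BT-TR1 and 197 for BT-TPR2 against BT-TPR1. With the replicate block, the number of receptors called became 5 for the antibody pair, 8 for BT-TR2, 5 for BT-TPR1, 7 for BT-TPR2, 4 for BT-TR2 against BT-TR1, 3 for BT-TPR2 against BT-TPR1 and 6 for the TPR against the TR pools. With the GC correction, the number of receptors called became 5 for the antibody pair and 2 for BT-TPR2 against BT-TPR1. With the GC correction and the replicate block together, the number of receptors called became 4 for trastuzumab, 5 for the antibody pair, 7 for BT-TR2, 3 for BT-TPR2 against BT-TPR1 and 7 for the TPR against the TR pools. With replicates 2 and 3 alone, the number of receptors called became 0 for the pair against trastuzumab, 0 for BT-TPR2 against BT-TPR1 and 5 for the TPR against the TR pools. The shares of all genes called in that fit were 0.87%, 4.1% and 28.1% in the same order. Fitted on the compared groups alone, the number of receptors called became 0 for trastuzumab and 0 for the pair against trastuzumab. With no filter on low counts, the number of receptors called became 5 for BT-TPR1, 4 for BT-TR2 against BT-TR1 and 6 for the TPR against the TR pools. The shares of all genes called in the unfiltered fit are not given here, so these counts are not read as particular to the receptors. Leaving out 1 library at a time gave, for all genes, 597 to 1412 for trastuzumab, 1104 to 2405 for the antibody pair, 82 to 159 for the pair against trastuzumab, 5410 to 7983 for BT-TR1, 3028 to 4704 for BT-TR2, 3156 to 5088 for BT-TPR1, 3665 to 6451 for BT-TPR2, 534 to 4407 for BT-TR2 against BT-TR1, 351 to 659 for BT-TPR2 against BT-TPR1 and 2646 to 3975 for the TPR against the TR pools, and, for the receptors, 1 to 2 for trastuzumab, 3 to 3 for the antibody pair, 0 to 1 for the pair against trastuzumab, 4 to 7 for BT-TR1, 2 to 5 for BT-TR2, 3 to 3 for BT-TPR1, 2 to 5 for BT-TPR2, 1 to 2 for BT-TR2 against BT-TR1, 0 to 1 for BT-TPR2 against BT-TPR1 and 1 to 5 for the TPR against the TR pools. The cause of these shifts was not tested. Over the 2790 single-receptor values under alternatives, 2652 kept their side of the threshold, 82 passed in addition and 56 no longer passed. None that was called changed sign, but some changes that passed in neither fit did, as for FGFR2 under trastuzumab (-0.17 to 0.13 over its alternatives). Scaling by library size alone moved the median change of all genes to 0.14 on the log2 scale in BT-TPR1. Same-numbered libraries were not paired by the data in the antibody pair against untreated, BT-TR2 against BT-TR1 and the TPR against the TR pools, where the lowest correlations were -0.011, 0.073 and -0.052, so the replicate number was not taken as a pairing there. For FGFR1 under the antibody pair the block gave -0.39, adjusted p = 0.00305. Apart from the calls given with each receptor, the block changed no call of a receptor in the 7 paired comparisons. Low counts limit AXL, EPHA3, NTRK3 and FGFR2, whose levels rest on low read counts in each library.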

Other observations

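Summed over the 10 receptors, the level per kb of exon was 75.8 ± 22.9 CPM per kb in untreated cells (SD, n = 3), 56.8 ± 9.39 with trastuzumab and 51.4 ± 10.4 with the antibody pair. It was 35.8 ± 5.23 CPM per kb in BT-TR1, 51.3 ± 13.7 in BT-TR2, 52.9 ± 12.7 in BT-TPR1 and 54.3 ± 18.04 in BT-TPR2. FGFR4 held 52.6% ± 4.95 of this sum in untreated cells and 38.8% ± 7.80 in BT-TR1, while MET held 11.95% ± 3.35 and 30.5% ± 6.27. IGF1R held 15.9% ± 1.69 of the sum in untreated cells, 24.3% ± 0.897 with trastuzumab and 16.1% ± 1.61 in BT-TR1. FGFR1 held 10.7% ± 0.711 in untreated cells and 5.31% ± 0.144 in BT-TR1. Untreated replicate 1 had a sum of 102 CPM per kb, against 64.2 and 61.1 in replicates 2 and 3. The sums and shares are not corrected for GC content. With that correction the log2 change in BT-TR1 was 0.039 for MET and -0.52 for FGFR4. These shares were described and not tested.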
